A study of Mus musculus with 10 samples.

Results

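The genes described here are 7 oncofetal genes, that is, genes that are abundant in the embryo, low in most adult tissues and often active again in tumours. They are Hmga1 and Hmga2, Igf2bp1, Igf2bp2 and Igf2bp3, Lin28b, and the noncoding RNA H19. They were chosen by name among the 23924 gene symbols used from each of 2 tables of RNA sequencing values, and all 7 were present in both tables. The values are FPKM, fragment counts scaled to gene length and to the size of the library, for whole pieces of mouse pancreatic tumour.

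The tumours had been grown orthotopically, in the pancreas, in athymic nude hosts, animals without a thymus that keep few T cells. They came from 2 models that the labels call KrasT and MycT. The KrasT doxycycline group holds 3 tumours and the KrasT untreated group 3. The MycT doxycycline group holds 2 tumours and the MycT untreated group 2, of which 1 has a column whose number matches no label and is called unnumbered here. Mice of both doxycycline groups drank doxycycline at 100 ug/ml with 2.5% sucrose for 2 weeks, and mice of both untreated groups received none. The series is about the dormancy of pancreatic tumour cells that lack their oncogenic driver, and doxycycline is the drug that controls tetracycline-regulated transgenes. The labels give neither the transgene's promoter or build, nor whether a model is 1 clone, nor whether untreated mice drank sucrose, so sucrose, the drug itself and the transgene cannot be told apart as sources of a difference. Each tumour has its own animal number in the labels. No ages, and no genotype beyond the model names, are given.

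HMGA1 and HMGA2 are small chromatin proteins that bind AT-rich DNA through AT-hook motifs and bend it for other factors. IGF2BP1, IGF2BP2 and IGF2BP3 are RNA-binding proteins that coat mRNAs, Igf2 mRNA among them, and change their stability and translation. LIN28B binds precursors of the let-7 microRNAs and blocks their maturation. Mature let-7 in turn pairs with sites in the 3′ UTRs of Hmga2, Lin28b and the Igf2bp mRNAs and lowers their levels, which links the members into 1 regulatory circuit. H19 is an imprinted RNA transcribed next to Igf2, is abundant in fetal tissues and in skeletal muscle, and carries miR-675 in its sequence. HMGA1 and HMGA2 are known to be overexpressed in human pancreatic cancer.

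The let-7 family is shown first, because its seed, bases 2 to 8 of the microRNA, defines the sites that the members share. In RefSeq (GRCm38.p6), 11 of 1679 mature mouse microRNAs, made from 13 genes, carry the same seed. The following are 5 of them, with the seed in capitals.
let-7a-5p: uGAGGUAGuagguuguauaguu
let-7b-5p: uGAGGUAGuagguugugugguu
let-7d-5p: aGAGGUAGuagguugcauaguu
let-7g-5p: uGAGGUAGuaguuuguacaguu
miR-98-5p: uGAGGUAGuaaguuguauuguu

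The letters CTACCTC, which pair with that seed, were searched on the sense strand of the longest annotated 3′ UTR of each protein-coding gene (GENCODE, GRCm38). Hmga2, Igf2bp1 and Lin28b had 4 matches each, and Hmga1, Igf2bp2 and Igf2bp3 had 1 each. Of 20999 genes with a 3′ UTR, 9.03% had at least 1 match and 12 genes, or 0.0571%, had at least 4. Among 3′ UTRs of similar length, 0.123% had at least as many matches as that of Hmga2, 0.331% as that of Igf2bp1 and 0.295% as that of Lin28b. For the single matches the shares were 8.23% for Hmga1, 12.1% for Igf2bp2 and 13.3% for Igf2bp3. A match is a stretch of letters and was not tested for binding. H19 has no coding sequence and was not searched.

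All 4 sites of Hmga2, the member with the largest change in KrasT, are given with 15 bases before and up to 8 after the match, beside 1 site each of Igf2bp2, Hmga1 and Lin28b. The match is in capitals, with the A that follows it in an 8-base match also in capitals.
Hmga2, chr10:120364217-120364246, minus strand: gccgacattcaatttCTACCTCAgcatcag
Hmga2, chr10:120362980-120363009, minus strand: ccccactcctcaataCTACCTCtgaatgct
Hmga2, chr10:120362542-120362571, minus strand: ctgatttgcaaggaaCTACCTCcacacttc
Hmga2, chr10:120361684-120361713, minus strand: aatcaaaacacactaCTACCTCttaagtcc
Igf2bp2, chr16:22059466-22059495, minus strand: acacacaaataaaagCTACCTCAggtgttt
Hmga1, chr17:27563277-27563306, plus strand: tcctctgttcacaaaCTACCTCtggacggt
Lin28b, chr10:45381015-45381044, minus strand: acccgggcgggaagtCTACCTCAtgcaagc

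The first Hmga2 match starts 58 bases after the stop codon and the other three start at bases 1295, 1733 and 2591 of a 3′ UTR of 3014 bases. The first Lin28b match also lies close to the stop codon, at base 36 of 4445. Of the 4 matches in Igf2bp1, 3 are 8-base matches, the most of any member.

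**Figure D1:**
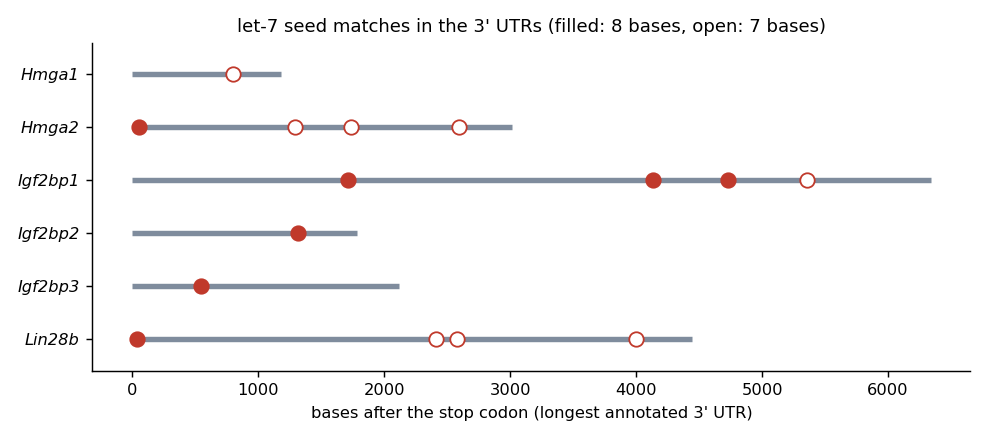
Position of let-7 seed matches in the longest annotated 3′ UTR of each protein-coding member, in bases after the stop codon, with grey bars for the UTR, filled circles for 8-base matches and open circles for 7-base matches. Hmga2, Igf2bp1 and Lin28b each hold 4 matches, and the other members hold 1 each.

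The libraries differed in ways that bear on all members. Total FPKM was 513950 to 569270 in KrasT doxycycline tumours and 789670 to 1019000 in KrasT untreated tumours, and 546010 to 557230 in MycT doxycycline tumours and 1126800 to 1517300 in MycT untreated tumours. Reads per library are not in the tables, so no counting interval is given. KrasT untreated replicate 1 was unlike its group mates: its log2 values correlated with theirs across genes at r = 0.837 and 0.851, whereas theirs correlated at 0.968. Rn45s, the ribosomal RNA precursor, was at 17238 FPKM in KrasT doxycycline replicate 1 and 20880 FPKM in MycT doxycycline replicate 2, against 546 to 2231 FPKM elsewhere. The 12 epithelial markers used here were listed above 0 FPKM in all 10 libraries. In KrasT 11 of the 12 reached 1 FPKM in 3 or more libraries, and in MycT all 12 did in 2 or more.

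Hmga2 had the largest change of the members tested. It was at 2.81, 3.26 and 1.66 FPKM in KrasT doxycycline tumours 1, 2 and 3, against 114, 141 and 280 FPKM in KrasT untreated tumours. The groups lay far apart, and the ratio of the means was 69.3 in favour of untreated tumours. In the untreated tumours Hmga2 stood above 96.0% to 98.6% of all genes in the table, and in the doxycycline tumours above 49.9% to 56.8%, with the doxycycline mean at 2.58 ± 0.827 FPKM and the untreated mean at 178 ± 89.2 FPKM (SD, n = 3 each). On the scale of log2(FPKM + 1), used for every change given here, which understates changes of low genes, Hmga2 fell by 5.57 ± 0.39 (SE; limma adjusted p = 0.00165). Leaving out each KrasT library in turn kept that call all 6 times, with changes from -5.83 to -5.19.

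Hmga2 in MycT tumours was low in both groups. It was at 1.29 and 0.299 FPKM in MycT doxycycline tumours 1 and 2, against 0.0338 FPKM in MycT untreated tumour 2 and 0.128 FPKM in the unnumbered one. The doxycycline values were both above the untreated ones, the opposite order from KrasT, at levels of at most 1.29 FPKM. The number of fragments behind these levels is not known. Hmga2 did not reach 1 FPKM in 2 MycT libraries and so was outside the MycT fit. In 1 limma fit over all 10 libraries its MycT change came to 0.68 ± 0.48 (SE, log2), at an adjusted p of 0.345.

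The change of Hmga2 was compared between the models in the same fit. The MycT change minus the KrasT change was 6.24 ± 0.62 (SE, log2), with a limma adjusted p of 0.00850. In this comparison 0.855% of all genes were called. Hmga2 entered it through its KrasT levels alone, and with MycT untreated values near 0 it had no room to fall in MycT on this scale, so the difference mostly restates the KrasT fall. Leaving out each library in turn kept this call 9 times of 10. Without MycT doxycycline replicate 1 the difference was 5.83 with an adjusted p of 0.0572.

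A pseudogene of Hmga2 has its own row and shares sequence with it. Hmga2-ps1 lies at chr1:176834624-176836133 (RefSeq, GRCm38.p6), and the GENCODE pseudogene inside it aligned over all of its 339 bases to an Hmga2 transcript at 95.0% identity. Hmga2-ps1 was at 10.3, 5.99 and 9.88 FPKM in KrasT doxycycline tumours 1, 2 and 3, against 26.1, 66.0 and 53.9 FPKM in KrasT untreated tumours. The order of the groups was that of Hmga2, with a smaller change of -2.29 ± 0.40 (SE, limma adjusted p = 0.0175), a call kept when doxycycline replicate 1 or untreated replicate 1 was left out and lost without any of the others (adjusted p 0.0514 to 0.0771). Hmga2-ps1 was at 3.84 and 11.4 FPKM in MycT doxycycline tumours, against 0.361 FPKM in untreated tumour 2 and 2.96 FPKM in the unnumbered one. The sources used here do not say how reads were divided between Hmga2 and its copy. With both rows summed, the KrasT change of Hmga2 was -4.13 ± 0.35 (SE, limma adjusted p = 0.00361) and the difference between models 6.02 ± 0.76 (SE, limma adjusted p = 0.0202). A noncoding gene annotated on the opposite strand, 1700006J14Rik, overlaps an exon of Hmga2, and whether counting used strand is not stated.

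Hmga1 was also lower in KrasT doxycycline tumours. It was at 14.5, 11.7 and 16.6 FPKM in doxycycline tumours 1, 2 and 3, against 44.3, 321 and 275 FPKM in untreated tumours. The 3 doxycycline values were close together, while untreated replicate 1 was far below its group mates and still above all doxycycline tumours. Hmga1 fell by 3.39 ± 0.73 (SE, log2; limma adjusted p = 0.0270). Leaving out each library in turn kept this call 1 time of 6. Without untreated replicate 1 the change was -4.30 ± 0.23 (SE, limma adjusted p = 0.000888). Without doxycycline replicate 1, 2 or 3 or untreated replicate 2 or 3, the limma adjusted p ran from 0.0697 to 0.101.

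Hmga1 and Hmga2 were thus the 2 members called in KrasT among 4 that passed the filter, both lower, beside 8.25% of all genes called lower. Their groups did not overlap, which was so for 23% of all genes tested in that direction. The filter kept genes that reached 1 FPKM in 3 or more KrasT libraries, and the 4 members it kept were Hmga1, Hmga2, Igf2bp2 and H19.

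**Figure D2:**
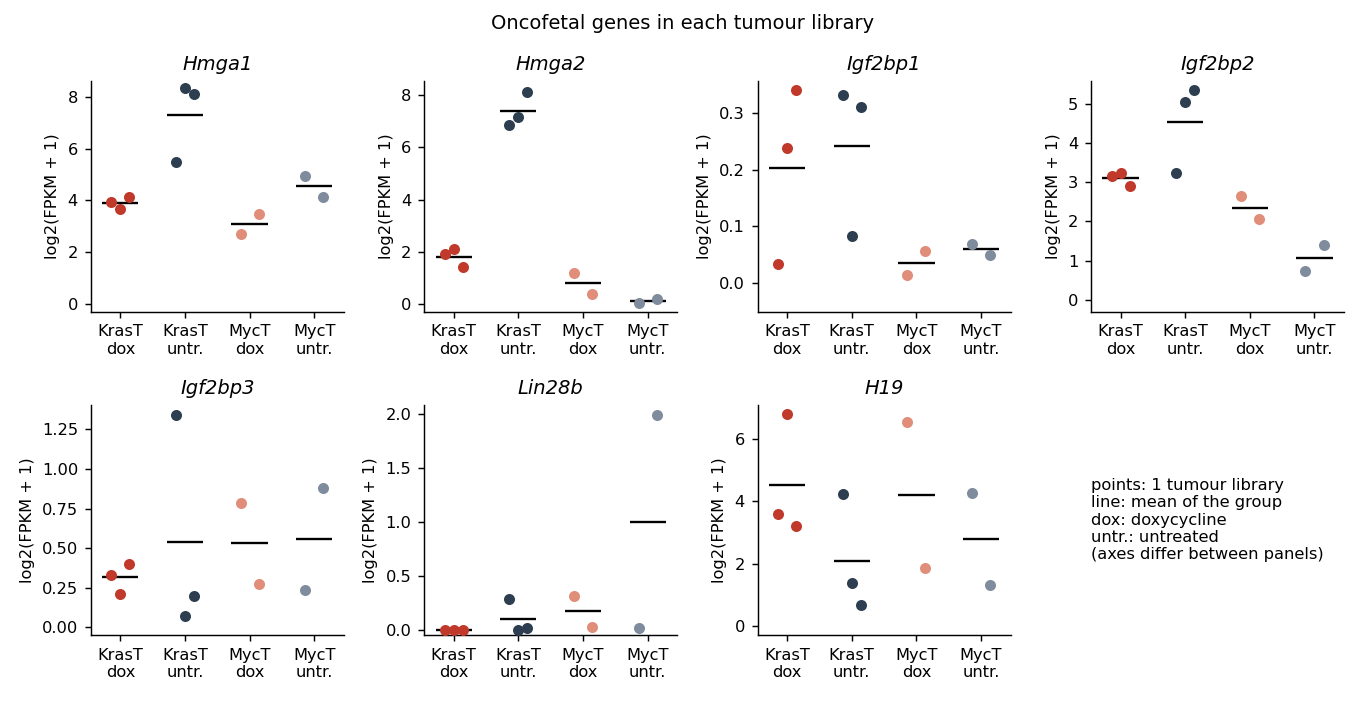
log2(FPKM + 1) of the 7 members in each of the 10 tumour libraries, 1 panel per gene with its own axis, points for libraries and lines for group means. Hmga2 separates the 3 KrasT doxycycline tumours (1.66 to 3.26 FPKM) from the 3 untreated ones (114 to 280 FPKM), and Igf2bp1 reaches at most 0.265 FPKM in any library.

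Hmga1 in MycT tumours was at 5.57 and 10.2 FPKM in doxycycline tumours 1 and 2, against 29.9 FPKM in untreated tumour 2 and 16.6 FPKM in the unnumbered one. The doxycycline tumours were lower without overlap, as in KrasT. Its change was -1.44 ± 0.48 (SE, log2), and limma gave an adjusted p of 0.120 in the MycT fit and 0.245 in the fit over all 10 libraries, so it did not pass. The difference between models, 1.95 ± 1.07 (SE), had a limma adjusted p of 0.343. Without KrasT untreated replicate 1 that difference was 2.86 and passed (limma adjusted p = 0.0177). That setting called 1663 of 13457 genes, against 115 with all 10 libraries.

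Hmga1 lies at chr17:27556497-27563674 (GRCm38). How reads that match more than 1 place in the genome were counted is not stated, which leaves the level of Hmga1 uncertain to that extent. AI413582 is annotated on the opposite strand with an exon over Hmga1, and it ran from 35.0 to 52.5 FPKM in KrasT doxycycline tumours against 33.5 to 101 FPKM in KrasT untreated tumours.

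Igf2bp2, the IGF2BP family member that is also expressed in many adult tissues, was the 1 family member expressed above 1 FPKM in most libraries. It was at 7.99, 8.45 and 6.42 FPKM in KrasT doxycycline tumours 1, 2 and 3, against 8.41, 32.0 and 39.7 FPKM in KrasT untreated tumours. Untreated replicate 1 lay among the doxycycline tumours, so the groups overlapped. Its change, -1.44 ± 0.55 (SE, log2), missed the threshold (limma adjusted p = 0.119). Without untreated replicate 1 it was -2.10 ± 0.24 (SE) and passed (limma adjusted p = 0.00357). That setting called 4223 of 12696 genes, against 2121 with all KrasT libraries.

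In MycT tumours Igf2bp2 was higher after doxycycline without overlap, at 5.29 and 3.16 FPKM, against 0.654 FPKM in untreated tumour 2 and 1.65 FPKM in the unnumbered one. By limma the change was 1.29 ± 0.43 (SE), which did not pass either alone (adjusted p = 0.123) or with all 10 libraries fitted together (adjusted p = 0.182). The values of Igf2bp2 thus ran in opposite directions in the 2 models, though neither change passed. Their difference, 2.73 ± 0.82 (SE), did not pass either (limma adjusted p = 0.121). Without KrasT untreated replicate 1 it was 3.38 ± 0.46 (SE) with an adjusted p of 0.00963.

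In MycT, limma called 0 of the 3 members that reached 1 FPKM in 2 or more MycT libraries (Hmga1, Igf2bp2 and H19), where it called 0.039% of all genes. At an unadjusted p under 0.05 there were 2 of 3, Hmga1 and Igf2bp2, beside 4284 of the 12834 genes tested. The fit over all 10 libraries, which Hmga2 entered through its KrasT levels alone, called 0 of 4 members and 19.5% of all genes. The MycT groups did not overlap for Hmga1 and Igf2bp2, which was so for 64.7% of all genes tested.

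**Figure D3:**
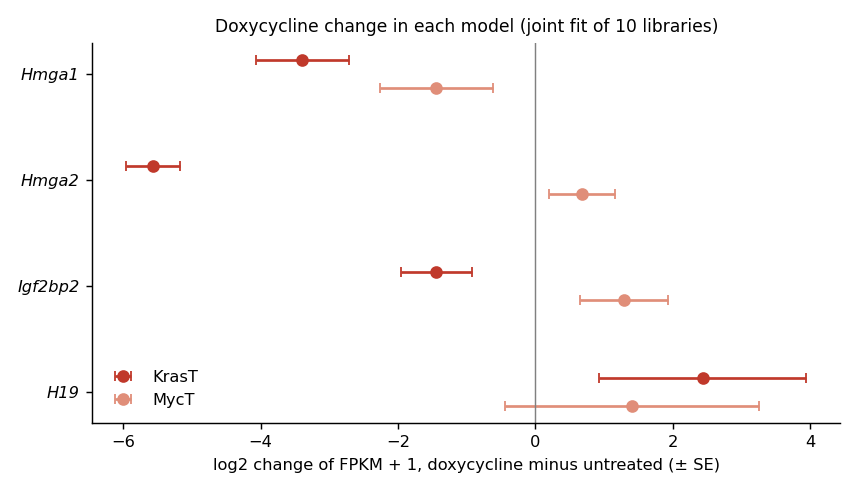
Change of log2(FPKM + 1) after doxycycline in KrasT and MycT tumours for the 4 members in 1 limma fit over 10 libraries, with bars for ± 1 SE. Hmga2 did not pass the MycT filter and entered this fit through its KrasT levels alone. Hmga2 is at -5.57 in KrasT and 0.68 in MycT, and Igf2bp2 at -1.44 in KrasT and 1.29 in MycT.

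H19 was higher in some doxycycline tumours, with a spread as wide as the difference. It was at 11.0, 110 and 8.34 FPKM in KrasT doxycycline tumours 1, 2 and 3, against 17.8, 1.63 and 0.585 FPKM in KrasT untreated tumours. In MycT it was at 92.4 and 2.65 FPKM in doxycycline tumours 1 and 2, against 18.3 FPKM in untreated tumour 2 and 1.50 FPKM in the unnumbered one. In each group 1 library was several times above the rest, and the groups overlapped in both models. The change was 2.44 ± 1.22 (SE, limma adjusted p = 0.210) in KrasT and 1.41 ± 1.82 (SE, limma adjusted p = 0.624) in MycT. Without KrasT untreated replicate 1 the KrasT change was 3.50 and passed (limma adjusted p = 0.0462), in a setting that called 4223 of 12696 genes. Without KrasT doxycycline replicate 2 the KrasT change was 1.31. Without MycT doxycycline replicate 1 the MycT change was -0.93.

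Skeletal muscle genes varied across libraries in nearly the same order as H19. The summed FPKM of 10 muscle genes, among them creatine kinase Ckm and the actin Acta1, was 113, 6678 and 354 in KrasT doxycycline tumours 1, 2 and 3, against 678, 11.9 and 10.2 in KrasT untreated tumours. It was 7914 and 45.2 in MycT doxycycline tumours, against 8.40 in untreated tumour 2 and 23.5 in the unnumbered one. The 2 libraries with the most H19 were those with the most muscle RNA, and KrasT untreated replicate 1 was highest in its group for both. MycT untreated tumour 2 was the exception, with H19 at 18.3 FPKM beside the lowest muscle sum. Myod1, a muscle master regulator, was listed at 0 in 6 of the 10 libraries and Myog, which acts after it, in 3. None of the 8 muscle genes tested passed in KrasT, and the part of muscle RNA in the H19 values was not tested.

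**Figure D4:**
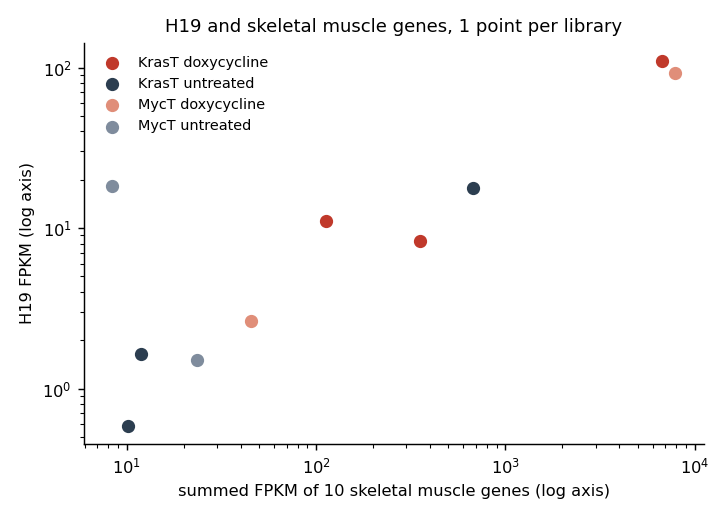
H19 FPKM against the summed FPKM of 10 skeletal muscle genes in the 10 libraries, both on log axes, 1 point per library. KrasT doxycycline replicate 2 (110 FPKM) and MycT doxycycline replicate 1 (92.4 FPKM) lie at the top right, and MycT untreated replicate 2 (18.3 FPKM at a muscle sum of 8.40) lies off the trend.

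Igf2bp1, Igf2bp3 and Lin28b, the members most confined to the embryo in normal tissue, were near the floor of detection. Igf2bp1 ran from 0.0233 to 0.265 FPKM in KrasT doxycycline tumours, from 0.0596 to 0.258 FPKM in KrasT untreated tumours, and stayed below 0.05 FPKM in all 4 MycT tumours. Igf2bp3 was at 0.160 to 0.320 FPKM in KrasT doxycycline tumours, against 0.0503, 0.147 and 1.53 FPKM in KrasT untreated tumours, the highest being replicate 1. In MycT, Igf2bp3 was at 0.725 and 0.208 FPKM after doxycycline, against 0.178 FPKM in untreated tumour 2 and 0.839 FPKM in the unnumbered one. Both sets of groups overlapped. Lin28b was listed at 0 in all 3 KrasT doxycycline tumours and in KrasT untreated replicate 2, and was at 0.223 and 0.0130 FPKM in untreated replicates 1 and 3. Lin28b reached 1 FPKM in 1 library only, the unnumbered MycT untreated tumour with 2.97 FPKM, against 0.0129 FPKM in the other untreated MycT tumour and 0.243 and 0.0208 FPKM after doxycycline. Its relative Lin28a was listed at 0 or at most 0.132 FPKM in every library. These 3 members passed neither filter. Tested with no filter, their limma adjusted p ran from 0.442 (Lin28b in KrasT) to 0.966 (Igf2bp3 in MycT). Levels this low, with read depth unknown, give no view of a change. Malsu1, a protein-coding gene on the opposite strand with an exon over Igf2bp3, was at 19.1 to 99.9 FPKM, so reads could not be assigned to Igf2bp3 with certainty.

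The order of the groups by level differed between members. The 2 models come in separate tables, and whether these were normalized together is not stated. Levels of the 2 models are therefore set side by side and not tested. Hmga2 ran, from high to low, KrasT untreated, KrasT doxycycline, MycT doxycycline and MycT untreated, with no overlap between neighbours. Hmga1 ran KrasT untreated, MycT untreated, KrasT doxycycline and MycT doxycycline, where the lowest MycT untreated tumour (16.63 FPKM) and the highest KrasT doxycycline tumour (16.57 FPKM) were level. Igf2bp2 followed the order of Hmga2, with KrasT untreated and KrasT doxycycline overlapping. For H19 all 4 groups overlapped.

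**Figure D5:**
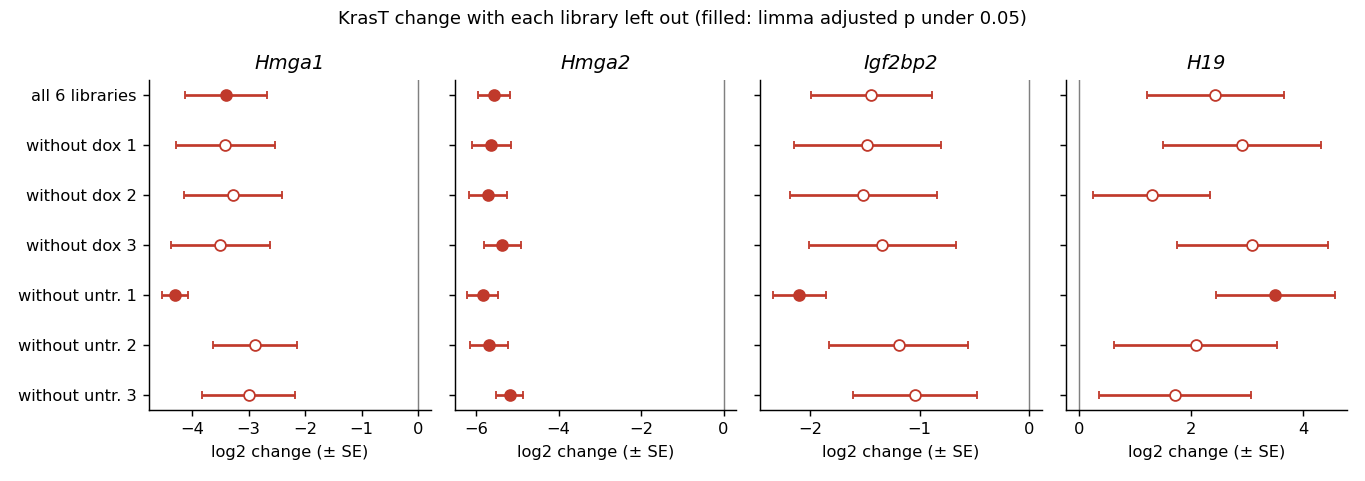
KrasT change of log2(FPKM + 1) after doxycycline for the 4 tested members with all 6 libraries and with each library left out, bars for ± 1 SE, filled circles for a limma adjusted p under 0.05. Hmga2 stays between -5.83 and -5.19. Hmga1 passes with all 6 libraries and without untreated replicate 1. Igf2bp2 and H19 pass only without untreated replicate 1, where 4223 of 12696 genes were called, against 2121 with all 6 libraries.

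RNA of cell type markers also differed between doxycycline and untreated tumours. In whole tissue, fewer cells of a type and less RNA per cell cannot be told apart. In KrasT, 2 of 11 epithelial markers were called lower, beside 8.25% of all genes, and all 11 had negative changes. For counts over lists, here and below, rose and fell mean called higher and called lower. The median change was -1.30 over the list and -0.10 over all genes tested. The summed FPKM of the epithelial list was 368, 2168 and 1845 in doxycycline tumours 1, 2 and 3, against 2479, 19743 and 10302 in untreated tumours. Untreated replicate 1, which had the least Hmga1 and Igf2bp2 of its group, was also the lowest of its group in this sum. Cdh1 was at 4.67 FPKM and Krt7 at 7.10 FPKM in that library, against 291 and 1258 FPKM or more in its group mates. Cdh1 and Krt7 were chosen here after their values were seen. The epithelial sum of that library was still above that of every KrasT doxycycline tumour. Fibroblast genes rose in 10 of 12 cases, beside 8.46% of all genes called higher, and their sum was 4163 to 9448 FPKM in doxycycline tumours against 349 to 780 FPKM in untreated tumours. Endothelial genes rose in 7 of 10 cases, and macrophage and islet genes in 2 of 10 and 2 of 7. Neutrophil and adipocyte genes rose in 2 of 4 and 2 of 5. Acinar genes were called higher in 0 of 7 cases, though 0 of the 7 changes were negative and their median was 3.44. The acinar sum was 349.9, 143.3 and 16712 FPKM in doxycycline tumours 1, 2 and 3. It was 25.3, 391.6 and 195.6 FPKM in untreated tumours, so the groups overlapped. The islet sum was 7534.8, 44.7 and 2544.6 FPKM in doxycycline tumours, against 0.311, 70.9 and 24.8 FPKM in untreated tumours. The proliferation list fell in 6 of 12 genes in KrasT, with a median of -1.30, beside 8.25% of all genes called lower.

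Set against the epithelial sum, the KrasT groups of Hmga2, Hmga1 and Igf2bp2 all overlapped. Per 1000 FPKM of epithelial markers, a scale chosen after the values were seen, Hmga2 stood at 7.65, 1.50 and 0.897 in KrasT doxycycline tumours 1, 2 and 3, against 46.0, 7.13 and 27.2 in KrasT untreated tumours. Only doxycycline replicate 1 lay above the lowest untreated value of Hmga2. Hmga1 stood at 39.4, 5.41 and 8.98 in doxycycline tumours, against 17.9, 16.3 and 26.6 in untreated tumours, and Igf2bp2 at 21.7, 3.90 and 3.48, against 3.39, 1.62 and 3.85. For Hmga1 and Igf2bp2, doxycycline replicate 1, the library with the smallest epithelial sum, was the highest KrasT library on this scale. The part of cell makeup in the changes was not tested.

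In MycT the epithelial list did not fall. Its sum was 2475 and 1141 FPKM in doxycycline tumours 1 and 2, against 656 FPKM in untreated tumour 2 and 2019 FPKM in the unnumbered one. In the fit over all 10 libraries 1 of 12 epithelial markers rose, 7 of 12 fibroblast genes rose beside 7.51% of all genes, and all 12 proliferation genes fell, with a median of -3.24, beside 12% of all genes called lower. The fit of the 4 MycT libraries alone called 0 genes of these and of all other lists, so every MycT count over a list given here rests on a spread estimated over both models.

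The list of let-7 processing genes around LIN28B was compared next. Of its 13 genes tested in KrasT, 0 rose, beside 8.46% of all genes called higher. In the same list 1 fell, a share near the 8.25% of all genes called lower. The 1 that fell was Syncrip, an RNA-binding protein, with -1.12 ± 0.26 (SE, limma adjusted p = 0.0324). Dicer1, which cuts the precursor, was at 4.54, 4.71 and 5.53 FPKM in KrasT doxycycline tumours, against 3.14, 4.15 and 5.30 FPKM in untreated tumours, chosen here after its values were seen. In the fit over all 10 libraries 2 of 14 genes fell in MycT, a share near the 12% of all genes called lower there, Syncrip (-1.05 ± 0.28 SE) and the let-7 precursor binder Hnrnpa1 (-1.84 ± 0.37 SE). The 14 rows for let-7 family precursors were at 0 in all 10 libraries, and mature microRNAs were not measured by these libraries.

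Other known let-7 target mRNAs went both ways. In KrasT 2 of 20 rose and 4 fell, beside 8.46% of all genes higher and 8.25% lower, with a median of -0.31. Cyclin D1, Ccnd1, was at 24.4, 32.9 and 28.5 FPKM in KrasT doxycycline tumours, against 168, 285 and 244 FPKM in untreated tumours (-2.95 ± 0.28 SE, limma adjusted p = 0.00404). All doxycycline tumours were below all untreated ones. Mycn, a MYC family transcription factor, rose by 1.90 ± 0.37 (SE, limma adjusted p = 0.0219), and Tgfbr3, a TGF-beta co-receptor, by 2.32 ± 0.40 (SE, limma adjusted p = 0.0170). In MycT, by the fit over all 10 libraries, 5 of 21 rose and 3 fell, beside 7.51% of all genes higher and 12% lower. Tgfbr3 (2.60 ± 0.50 SE) and the IGF1 receptor Igf1r (1.48 ± 0.34 SE) rose there, and the helicase Dna2 (-1.41 ± 0.29 SE) fell.

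Genes that act with the other members were also compared. Of 19 genes of IGF2BP particles and m6A RNA methylation, 0 rose and 3 fell in KrasT, beside 8.25% of all genes called lower. The median of these 19 genes was -0.59. Hnrnpab (-1.25 ± 0.23 SE, limma adjusted p = 0.0193) and Fxr1 (-1.09 ± 0.28 SE, limma adjusted p = 0.0434), both RNA-binding proteins, were among the 3 that fell. In MycT, by the fit over all 10 libraries, 4 fell, Hnrnpab with -1.15 and Fmr1 with -1.30 among them. There 12% of all genes were called lower. Of 9 other HMG proteins 1 fell in KrasT, a share near the 8.25% of all genes called lower. It was Hmgb2, a chromatin protein of dividing cells (-1.30 ± 0.35 SE, limma adjusted p = 0.0472). In MycT 6 of 9 fell by the fit over all 10 libraries, beside 12% of all genes. Hmgb2 was at 34.9 and 35.6 FPKM in MycT doxycycline tumours, against 744 FPKM in untreated tumour 2 and 724 FPKM in the unnumbered one (-4.34 ± 0.38 SE).

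The imprinted genes that share H19's network, a list that includes Igf2, moved upward in KrasT, with a median of 1.27. There 5 of 13 rose, beside 8.46% of all genes called higher, and 0 fell. Dcn, the matrix proteoglycan decorin, was at 1702, 1309 and 1094 FPKM in KrasT doxycycline tumours, against 69.1, 22.7 and 20.7 FPKM in untreated tumours. Dcn is also on the fibroblast list given above. Grb10, an adaptor that restrains insulin and IGF1 receptors, rose by 2.76 ± 0.32 (SE, limma adjusted p = 0.00753). Igf2, chosen here after its values were seen, was at 1.59, 6.56 and 2.20 FPKM in KrasT doxycycline tumours, against 1.25, 0.318 and 0.522 FPKM in untreated tumours, with the highest value in the library that also had the most H19 in KrasT. In MycT, by the fit over all 10 libraries, 1 of 13 rose, a share near the 7.51% of all genes called higher. It was Dcn, with 4.73 ± 0.70 (SE).

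Of 12 other oncofetal genes 5 could be tested in KrasT. Of these, 2 rose, beside 8.46% of all genes called higher, and 0 fell. Gpc3, a cell surface proteoglycan of fetal liver, was at 28.8, 57.0 and 60.0 FPKM in KrasT doxycycline tumours, against 0.832, 1.47 and 2.05 FPKM in untreated tumours (4.30 ± 0.37 SE, limma adjusted p = 0.00361). Mdk, the heparin-binding growth factor midkine, was at 260, 106 and 192 FPKM in KrasT doxycycline tumours, against 43.4, 13.1 and 13.2 FPKM in untreated tumours (3.08 ± 0.54 SE, limma adjusted p = 0.0175). The median of these 5 genes was -0.86, opposite in sign to the 2 that passed. Gpc3 and Mdk thus went the other way from Hmga1 and Hmga2 in the same tumours. Mdk also rose in MycT by the fit over all 10 libraries (4.06 ± 1.06 SE).

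Last, the genes whose pattern over the 10 libraries was most like that of a member were listed, by the root mean square difference of log2(FPKM + 1) after each gene was centred on its own mean. For Hmga2, whose own root mean square was 2.99, they were Prkg2 (0.77), Nptx1 (0.89) and Synpr (0.89). Prkg2, a cGMP-dependent kinase, was at 1.86, 1.12 and 0.786 FPKM in KrasT doxycycline tumours, against 125, 122 and 185 FPKM in KrasT untreated tumours, and at most 2.48 FPKM in MycT. All 3 were high in KrasT untreated tumours and near the floor elsewhere. For Hmga1, with its own at 1.81, they were the glucose transporter Slc2a1 (0.56), Tmem163 (0.58) and Slc35d1 (0.60). Slc2a1 was at 20.0, 15.5 and 12.1 FPKM in KrasT doxycycline tumours, against 47.2, 379 and 213 FPKM in untreated tumours, with the low value in replicate 1 as for Hmga1. For Igf2bp2, with its own at 1.36, they were the cytoskeletal actinin Actn1 (0.31), the kinase Src (0.33) and B4galt6 (0.33). Src was at 12.8 and 13.8 FPKM in MycT doxycycline tumours, against 2.47 FPKM in untreated tumour 2 and 4.09 FPKM in the unnumbered one. For H19, with its own at 2.03, they were Tmem38a (0.68), Pkia (0.76) and Actn2 (0.76), and Tmem38a and Actn2 are genes of muscle. Likeness rests on the same 10 libraries for every gene, level differences between the 2 models included, and is a description.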

How the data were processed

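Per the labels, total RNA from frozen tumour tissue was made into libraries with an Illumina TruSeq kit. The authors deposited FPKM values, 1 table per model and 1 column per library. The submitters' processing notes name cutadapt, TopHat and mm9. Which program and annotation gave the FPKM, and whether strand was used, the sources do not say. Read depth is unknown. Relative depth, from the steps between low values, ran from 1 to 1.57 within KrasT and from 0.621 to 1 within MycT.

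Each column was assigned to the sample whose animal number it carries. An untreated MycT column with a number found in no label was used as a replicate of its group without a number. Of 23951 rows, 27 with date-like or repeated symbols were left out. Changes were tested on log2(FPKM + 1) over all genes that passed the filter with limma 3.58.1 under R 4.3.3 (moderated with a mean-variance trend, two-sided, Benjamini-Hochberg adjusted p under 0.05), per table, and for the difference between models in 1 fit over both. The smallest p of an exact permutation test is 0.1 for 3 against 3 samples and 0.333 for 2 against 2. The steps were tested on simulated data. Alternatives were a pseudocount of 0.1, quantile normalization, median-ratio scaling, no filter, a filter at a mean of 5 FPKM, robust or untrended variance, the joint fit, and each library left out. Summing Hmga2 with its copy was chosen after seeing the data. Some items are not reported here.

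Sequences, 3′ UTRs and positions came from RefSeq GRCm38.p6 and GENCODE (GRCm38), and the pseudogene was aligned with BLAST+ 2.17.0. No position is given in mm9. Python 3.11.15 with matplotlib 3.10.9 made the figures. The members and gene lists were chosen with earlier results of these data known. Named genes are the 7 members, up to 2 called rises and 2 called falls per list and model (not all are printed), and the 3 genes most like each member with a mean of at least 1 FPKM. Eif2c1, Eif2c2 and Ly6g were not found under these symbols.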

Additional observations from a re-analysis of the deposited data

Results flagged for a closer look

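The doxycycline change of Hmga2 differed between the models by the interaction term of 1 limma fit over 10 libraries. The MycT change minus the KrasT change was 6.24 ± 0.62 (SE, log2), with an adjusted p of 0.00850. The direction was that of a fall in 3 of 3 KrasT doxycycline tumours relative to every untreated one, and of higher values in 2 of 2 MycT doxycycline tumours. Over its alternatives the difference ran from 5.83 to 8.10, with limma adjusted p from 0.00503 to 0.0572, and the call was lost only without MycT doxycycline replicate 1. The MycT part of the contrast rests on values of at most 1.29 FPKM, with the untreated ones near 0, so no fall could have been seen there and the difference mostly restates the KrasT fall.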

How the results depend on the processing

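No paired analysis was possible because each tumour has its own animal number in the labels and no number is shared between groups. In KrasT 2 members were called, and 1 to 4 with 1 library left out. For the difference between models 1 was called, and 0 to 3 with 1 library left out. In MycT 0 were called under every alternative. The H19 change in MycT turned from 1.41 to between -0.93 and 3.75 with 1 library left out, and its difference between models from -1.03 to between -3.37 and 1.31. The cause was not tested. All other members kept their direction under each alternative that gave a value, Hmga2 in KrasT with its call in each of them.

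Counts over all genes depended more on the setting. The 2121 KrasT calls were 1340 with a mean of at least 5 FPKM, 1078 under quantile normalization and 113 to 4223 with 1 library left out. Median-ratio scaling moved the share of higher calls from 50.6% to 62.1% and the median change of all genes from -0.10 to 0.01. The 5 MycT calls were 0 with no filter or 1 library left out, 10 with a mean of at least 5 FPKM and 2619 in the joint fit. The 115 calls of the difference were 24 with a pseudocount of 0.1, 69 with a mean of at least 5 FPKM and 6 to 1663 with 1 library left out. The number of tumours, unknown read depth and the copy of Hmga2 limit precision, and Igf2bp1, Igf2bp3 and Lin28b were too low to test.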

Other observations

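Afp, alpha-fetoprotein, a fetal serum protein and tumour marker, was highest in the library where Lin28b was highest; both were chosen for this after their values were seen. In MycT doxycycline tumours 1 and 2 Afp was at 12.8 and 1.73 FPKM, against 0.858 FPKM in untreated tumour 2 and 84.6 FPKM in the unnumbered untreated one, where Lin28b was at 2.97 FPKM. In KrasT doxycycline tumours Afp was at 0.299, 0.186 and 0.186 FPKM, against 4.97, 1.02 and 1.25 FPKM in untreated tumours, and Lin28b was likewise highest in untreated replicate 1.

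The host transcript Mirlet7bhg, from which let-7b and let-7c-2 are cut, was at 0.675, 2.16 and 5.54 FPKM in KrasT doxycycline tumours, against 0.882, 0.744 and 0.310 FPKM in untreated tumours. In MycT it was at 1.98 and 2.20 FPKM after doxycycline, against 0.262 FPKM in untreated tumour 2 and 0.397 FPKM in the unnumbered one. KrasT doxycycline replicate 1 lay within the untreated range. The MycT groups did not overlap, which was so for 64.7% of all genes tested. Mirlet7bhg was chosen here after its values were seen.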
